A study of Mus musculus with 9 samples.

Results

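The hepatic uptake and breakdown of glucose and fructose was followed through 8 genes in liver RNA from mouse offspring of 3 kinds of conception. They are Slc2a2 (transport), Gckr (regulation of glucose phosphorylation), Khk (fructose phosphorylation) and the glycolytic enzyme genes Pfkl, Gapdh, Pgk1, Pgam1 and Pklr. The genes were chosen as a fixed list of symbols and matched to Ensembl identifiers through the gene annotation, giving 8 of the 55335 genes in the table, and all 8 passed the filter on low values that 6755 genes passed. The 9 mice were of strain B6D2F2 and 20 weeks old, and their livers were taken after 4 h of fasting. The study describes the sequenced groups as male and chow-fed. The NC-chow group (mice 1, 5 and 6) was conceived by natural mating. The IVF-chow group (mice 2, 3 and 4) grew from in vitro fertilized 2-cell embryos transferred fresh into the oviducts of pseudopregnant ICR females. The FET-chow group (mice 2, 3 and 4) grew from 2-cell embryos that were slow-frozen, thawed and transferred in the same way. Fertilization in vitro, embryo transfer and the ICR foster mother were shared by both treated groups and absent from NC-chow, so their parts cannot be told apart. No source states that mice of a group came from separate litters, so p-values measure the spread between these mice.

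Glucose crosses the hepatocyte membrane in both directions through GLUT2, is trapped by phosphorylation, and is then split and oxidised to pyruvate by the glycolytic enzymes. Fructose is phosphorylated by ketohexokinase and joins the pathway below its main control point. In liver this pathway is regulated by feeding, and after food is withdrawn the same tissue turns to making glucose.

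The upstream bases of 4 genes that mark the liver's own form of the pathway are shown because transcription factors that answer to carbohydrate supply and to hepatocyte identity are known to act on genes of this kind. The sequences are from RefSeq (GRCm38.p6), run 5′ to 3′ over the 250 bases before the start on the plus strand, and have motif matches in capitals. Pklr has 2 start sites, and the downstream one (start 2), from which the liver enzyme is made, is printed. The 4 windows lie at chr3:28697653-28697902 for Slc2a2, chr5:31297313-31297562 for Gckr, chr3:89136373-89136622 for Pklr and chr5:30921309-30921558 for Khk, by the RefSeq starts, which can differ from those of GENCODE.
Slc2a2: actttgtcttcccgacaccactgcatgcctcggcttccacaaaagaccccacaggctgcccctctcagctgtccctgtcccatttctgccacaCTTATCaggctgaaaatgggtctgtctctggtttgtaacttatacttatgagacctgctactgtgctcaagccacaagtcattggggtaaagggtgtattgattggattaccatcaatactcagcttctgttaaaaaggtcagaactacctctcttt
Gckr: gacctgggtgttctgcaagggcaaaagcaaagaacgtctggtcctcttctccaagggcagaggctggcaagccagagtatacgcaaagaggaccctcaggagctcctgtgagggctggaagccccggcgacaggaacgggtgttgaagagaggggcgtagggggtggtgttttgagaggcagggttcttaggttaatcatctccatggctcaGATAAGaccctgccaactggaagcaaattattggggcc
Pklr start 2: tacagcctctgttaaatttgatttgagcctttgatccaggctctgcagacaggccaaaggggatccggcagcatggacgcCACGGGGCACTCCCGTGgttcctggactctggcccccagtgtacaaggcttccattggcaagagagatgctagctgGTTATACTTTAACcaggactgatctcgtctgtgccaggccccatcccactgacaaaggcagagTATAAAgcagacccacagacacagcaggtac
Khk: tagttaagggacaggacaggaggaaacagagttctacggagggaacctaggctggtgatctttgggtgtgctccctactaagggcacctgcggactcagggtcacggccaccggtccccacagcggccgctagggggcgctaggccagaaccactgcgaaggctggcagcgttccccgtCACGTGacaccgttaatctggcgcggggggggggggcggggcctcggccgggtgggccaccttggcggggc

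The 6 motifs were searched on both strands in the window from 250 bases before to 50 after each start, which RefSeq gave for all 8 genes with 2 windows for Pklr. The paired form CACGNNNNNNNNNCGTG, the layout of a carbohydrate response element, was found at -170 to -154 of Pklr start 2 and in 0.280% of the 32851 windows of this length. Pklr start 2 also held GTTANNNNNTAAC, an HNF1-type match, at -94 to -82 (0.332% of windows) and TATAAA at -31 to -26 (13.6% of windows). The E-box CACGTG occurred in the Khk window at -71 to -66 (7.15% of windows). GATAAG lay in the windows of Slc2a2, Gckr and Pklr start 1 (7.44% of windows). The shorter ACGTG, which is contained in the E-box, was present in the windows of Khk, Gapdh, Pgk1 and Pgam1 (19.6% of windows). The Pfkl window held no match to these 6 strings. These are matches of letters, and the gene-level table does not separate the Pklr start sites.

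**Figure D1:**
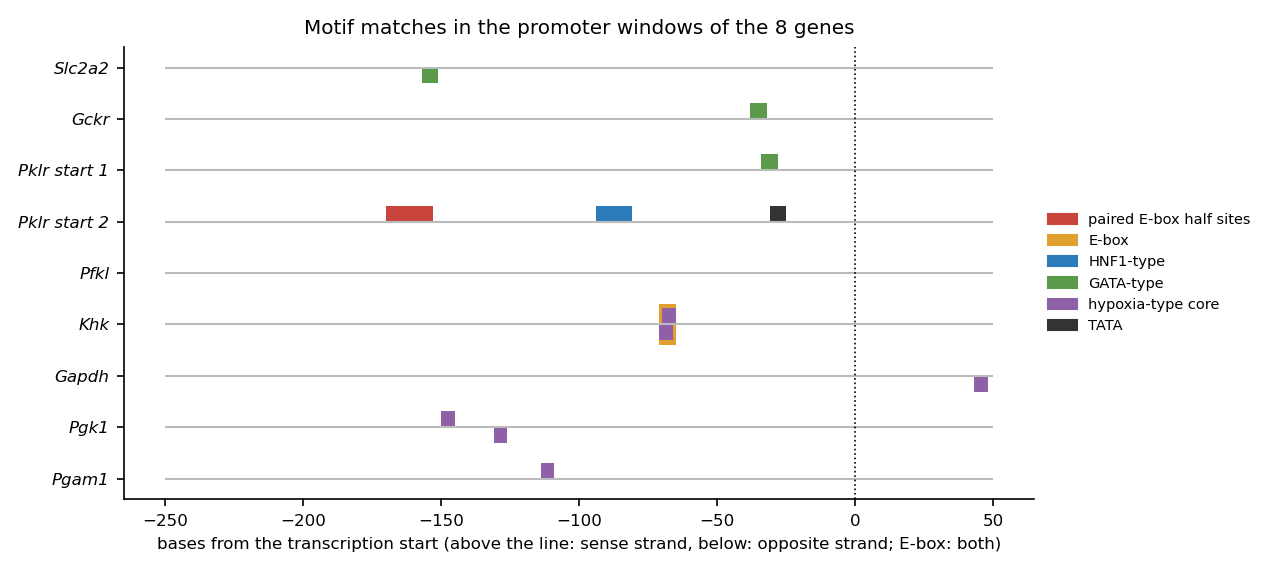
Positions of the motif matches relative to the transcription start (x axis, bases) in the 9 promoter windows of the 8 genes; boxes above a line are on the sense strand, boxes below on the opposite strand, and the E-box, which reads the same on both, spans the line. The Pklr start 2 window holds 3 of the 6 motifs, and the Pfkl window holds none.

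The values are FPKM, which relate fragments to gene length and to library size, so levels can be compared between genes. The libraries differed in ways that reach every gene. Estimated depth was 6590000 to 13370000 fragments in NC-chow, 3900000 to 8440000 in IVF-chow and 2020000 to 2920000 in FET-chow, with no overlap between FET-chow and the other groups. Nuclear protein-coding genes took between 4.36% (IVF-chow mouse 2) and 29.3% (IVF-chow mouse 4) of the summed FPKM. NC-chow mouse 1 stood apart from NC-chow mice 5 and 6: the number that ends its library name in the labels is next to those of the treated mice and far from those of the other NC-chow mice, and it held 66.5 FPKM of 4 skeletal muscle markers against at most 0.307 in the other NC-chow mice (13.9 in IVF-chow mouse 4 and 3.39 in FET-chow mouse 3). All 8 hepatocyte markers were above 0 in every mouse, with sums of 3175 to 29399 FPKM, the lowest in IVF-chow mouse 2 and FET-chow mouse 4. Levels are therefore given as FPKM and also as a share of the mouse's nuclear protein-coding FPKM times 1000000, called the coding-scaled level below. In bulk liver RNA, fewer hepatocytes and less RNA per hepatocyte cannot be told apart.

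None of the 8 genes passed the test in any comparison. The call rule was an adjusted p under 0.05 (limma on log2(FPKM + 1), Benjamini-Hochberg over 6755 genes), and log2 fold changes are on that scale, which understates the change of low genes. In FET-chow against NC-chow 0 of 8 were called, where 0.237% of all genes tested were, and 3 had an unadjusted p under 0.05 (12% of all genes). For IVF-chow against NC-chow the counts were 0 of 8 (0.0592% of all genes) and 1 (4.07%), and for FET-chow against IVF-chow they were 0 of 8 (0.0888%) and 0 (4.01%). Of the 8 genes, 7 had a negative fold change in FET-chow against NC-chow, beside 74.4% of all genes, and 7 had one in both IVF-chow against NC-chow (68.9%) and FET-chow against IVF-chow (65.4%). In FET-chow against NC-chow their median was -1.37, beside -0.46 over all genes. After coding scaling the medians were -0.85 and -0.03, so the shift of the whole table was largely removed and the members' median was still negative. Of the 8 hepatocyte markers, none of which was called, 7 were negative in FET-chow against NC-chow with a median of -1.42, or 7 and -0.78 after scaling, and the part of hepatocyte RNA in the members' values was not tested. Relative to NC-chow, IVF-chow had a member median of -0.72 beside -0.25 over all genes, or -0.40 and -0.06 after scaling, while the hepatocyte markers had -0.55, or -0.20 after scaling. Both comparisons use the same NC-chow mice. Between FET-chow and IVF-chow the member median was -0.37 beside -0.20 over all genes, or -0.12 and 0.04 after scaling, with the hepatocyte markers at -0.64, or -0.35 after scaling.

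**Figure D2:**
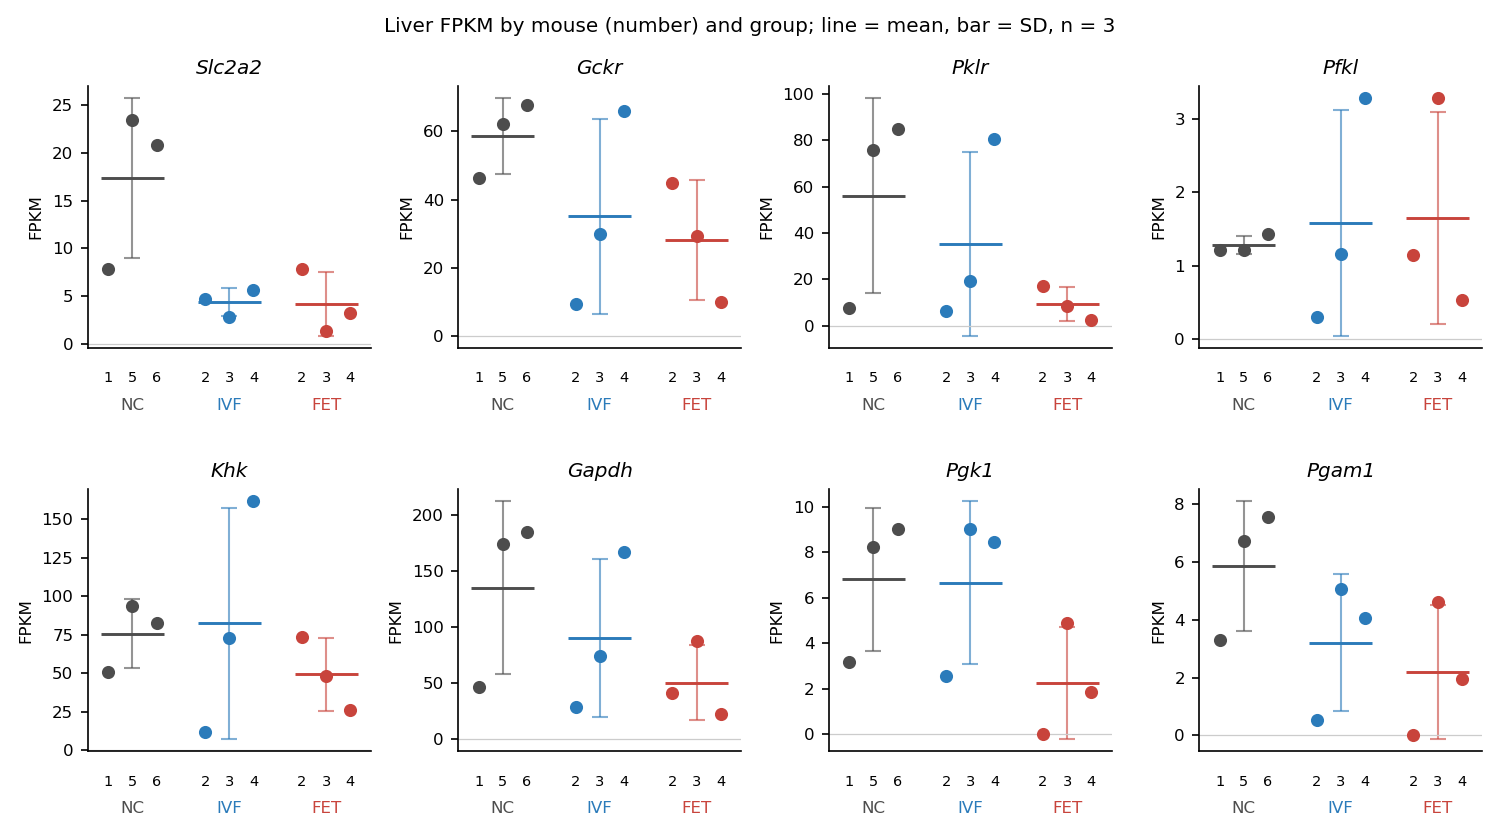
FPKM of the 8 genes (y axis, linear, 1 panel a gene) in each mouse (x axis, mouse number within group), with the group mean (line) and SD (bar), n = 3 per group. Slc2a2 is below 8 FPKM in the 6 treated mice and in NC-chow mouse 1, NC-chow mouse 1 lies apart from NC-chow mice 5 and 6 for Slc2a2, Pklr and Gapdh, and IVF-chow mouse 2 is low in most panels.

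Slc2a2 (ENSMUSG00000027690, chr3:28697903-28731359, plus strand, GRCm38) encodes GLUT2, the main glucose transporter of the hepatocyte. Its FPKM was 7.85, 23.4 and 20.8 in NC-chow (mice 1, 5 and 6 in that order, as below). The IVF-chow values (mice 2, 3 and 4) were 4.70, 2.80 and 5.67. Those of FET-chow, in the same order of numbers, were 7.83, 1.37 and 3.28. Every treated mouse lay below every NC-chow mouse, although FET-chow mouse 2 and NC-chow mouse 1 were nearly equal. The mean was 17.4 ± 8.35 (SD, n = 3) in NC-chow, 4.39 ± 1.46 in IVF-chow and 4.16 ± 3.32 in FET-chow. The log2 fold change was -1.91 in FET-chow (SE 0.78, 95% interval -3.48 to -0.34, adjusted p = 0.318) and -1.68 in IVF-chow (SE 0.78, -3.25 to -0.11, adjusted p = 1). The treated groups differed from each other by -0.23 (-1.80 to 1.34). Coding scaling changed the picture within groups: the levels became 83.7, 170 and 133 in NC-chow, 120, 25.6 and 24.6 in IVF-chow, and 85.7, 10.6 and 72.3 in FET-chow. On this scale the groups overlapped, with IVF-chow mouse 2 and FET-chow mouse 2 inside the NC-chow range and the others of the treated mice under it. The scaled log2 fold changes were -1.33 (adjusted p = 0.370) in FET-chow and -1.33 (adjusted p = 0.966) in IVF-chow. FET-chow mouse 3 had the lowest level, from an estimated 21.4 fragments.

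Gckr (ENSMUSG00000059434, chr5:31297443-31327314, plus strand) encodes the regulatory protein that holds the liver's glucose-phosphorylating enzyme inactive in the nucleus during fasting. It stood at 46.2, 62.1 and 67.7 FPKM in NC-chow, at 9.49, 29.99 and 65.9 in IVF-chow, and at 44.9, 29.4 and 9.97 in FET-chow. The FET-chow mice were all below the NC-chow mice, whereas IVF-chow mouse 4 reached the NC-chow range. FET-chow differed from NC-chow by -1.25 on the log2 scale (SE 1.02, -3.30 to 0.81, adjusted p = 0.666) and -1.08 in IVF-chow (-3.13 to 0.98, adjusted p = 1). Over the mice left out, the IVF-chow value ran from -1.71 (without IVF-chow mouse 4, unadjusted p = 0.0888, limma) to -0.37 (without IVF-chow mouse 2), and the FET-chow value from -1.69 (without FET-chow mouse 2) to -0.66 (without FET-chow mouse 4). Coding scaling brought the Gckr values closer together within NC-chow and within IVF-chow. The scaled levels were 493, 450 and 433 in NC-chow and 242, 274 and 286 in IVF-chow, which no longer overlapped. FET-chow mice 3 and 4, at 227 and 220, were near the IVF-chow mice, while FET-chow mouse 2, at 492, was level with NC-chow mouse 1. The scaled differences from NC-chow were -0.76 in IVF-chow (SE 0.37, unadjusted p = 0.0659, adjusted p = 0.964, limma) and -0.64 in FET-chow (SE 0.37, adjusted p = 0.417, limma).

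Counted over the 8 genes, FPKM did not overlap between groups, with the treated group lower, for 2 genes in FET-chow against NC-chow (Slc2a2 and Gckr, 17.1% of all genes), for 1 gene in IVF-chow against NC-chow (Slc2a2, 5.46%) and for 0 genes in FET-chow against IVF-chow (2.56%). On the coding-scaled level the counts were 0 (11.5% of all genes), 1 (Gckr, 11.3%) and 1 (Gapdh, 6.01%).

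**Figure D3:**
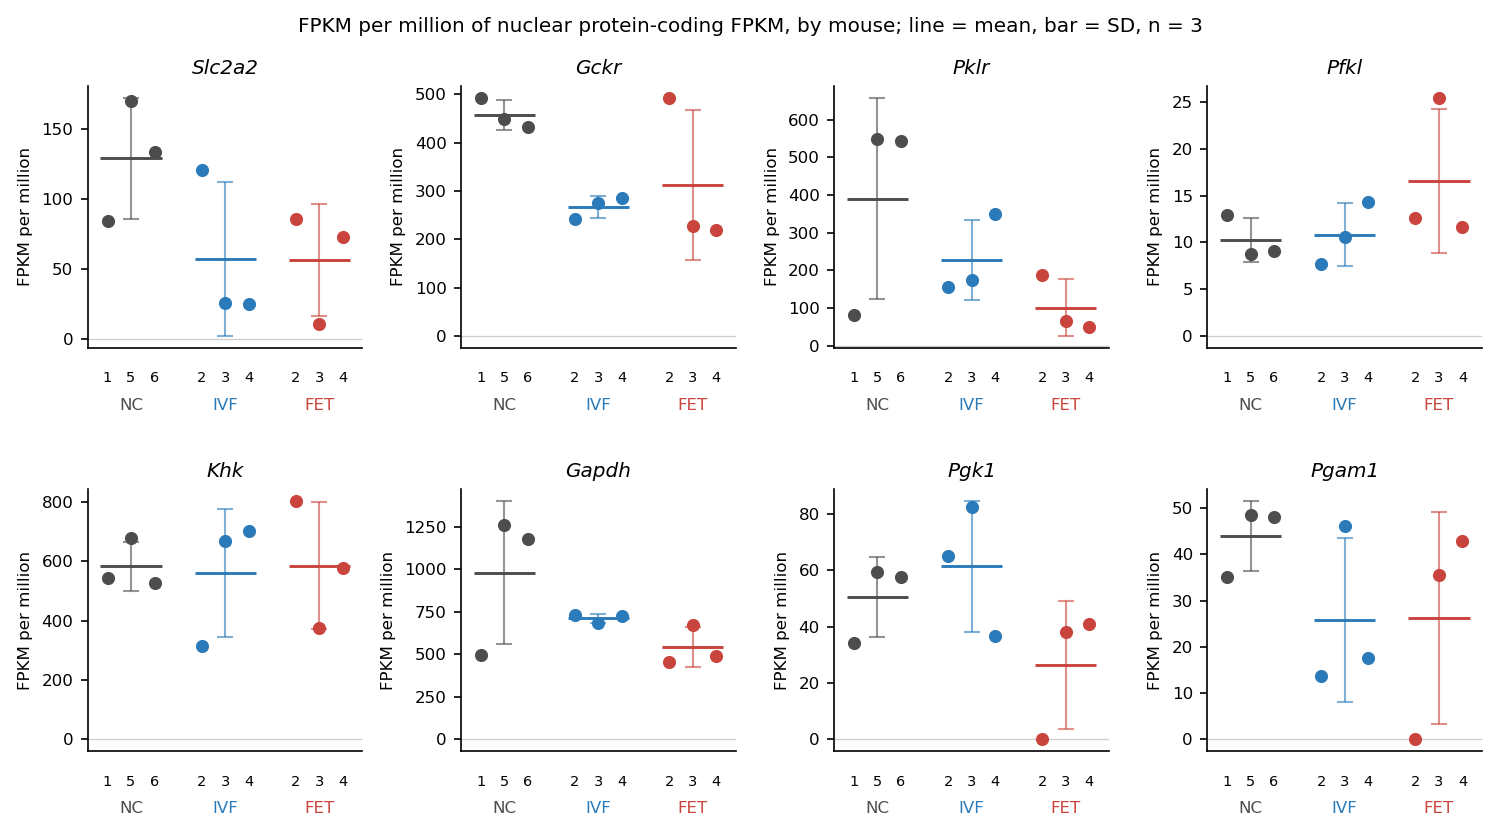
Coding-scaled levels of the same 8 genes (y axis, linear, FPKM as a share of the summed nuclear protein-coding FPKM of the mouse times 1000000), by mouse and group, with mean (line) and SD (bar), n = 3 per group. Gckr in IVF-chow (242 to 286) lies below NC-chow (433 to 493), Gapdh in FET-chow (454 to 674) lies below IVF-chow (681 to 728), and Khk has similar means in the 3 groups.

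Khk (ENSMUSG00000029162, chr5:30921431-30931248, plus strand) encodes ketohexokinase, which phosphorylates fructose. Its FPKM was 50.9, 93.8 and 82.4 in NC-chow, 12.3, 73.2 and 162 in IVF-chow, and 73.3, 48.4 and 26.2 in FET-chow. The IVF-chow mice spanned the values of the other groups, from the lowest mouse of the 9 to the highest. Fitted log2 fold changes were -0.68 in FET-chow (-2.85 to 1.49, adjusted p = 0.840) and -0.45 in IVF-chow (-2.62 to 1.72, adjusted p = 1). Over the mice left out, the FET-chow value ran from -1.02 (without FET-chow mouse 2) to -0.29 (without FET-chow mouse 4). Coding-scaled means were 582 ± 83.9 in NC-chow, 561 ± 216 in IVF-chow and 585 ± 214 in FET-chow (SD, n = 3). The scaled log2 difference was -0.05 (SE 0.42) in FET-chow and -0.13 (SE 0.42) in IVF-chow. Of the 8 genes, Khk had the smallest scaled difference between FET-chow and NC-chow.

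Pfkl (ENSMUSG00000020277, chr10:77986947-78010083, minus strand) encodes the liver subunit of phosphofructokinase, the committing step of glycolysis, and was the lowest of the 8. It measured 1.21, 1.21 and 1.43 FPKM in NC-chow, 0.300, 1.15 and 3.29 in IVF-chow, and 1.15, 3.29 and 0.529 in FET-chow. The NC-chow mice were close together and the treated mice lay on both sides of them. Pfkl was the only member with a positive log2 fold change in FET-chow against NC-chow (0.08, -1.12 to 1.29, adjusted p = 0.971). The estimate rests on few fragments, with a minimum of 5.76 (FET-chow mouse 4) and a maximum of 71.1 (NC-chow mouse 6). In IVF-chow the difference was 0.01 (-1.20 to 1.21, adjusted p = 1). After coding scaling the FET-chow difference from NC-chow was 0.38 (SE 0.34, adjusted p = 0.608, limma).

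Gapdh (ENSMUSG00000057666, chr6:125161715-125166467, minus strand) encodes glyceraldehyde-3-phosphate dehydrogenase, a glycolytic enzyme that is also used as a reference transcript, and was the highest of the 8 by mean. It read 46.5, 174 and 185 FPKM in NC-chow, 28.5, 74.4 and 167 in IVF-chow, and 41.5, 87.1 and 22.3 in FET-chow. NC-chow mouse 1 was at the level of the lower treated mice. The fitted difference was -1.38 in FET-chow (SE 1.08, -3.57 to 0.80, adjusted p = 0.648) and -0.68 in IVF-chow (-2.87 to 1.50, adjusted p = 1). Leaving out single mice, the FET-chow value ran from -2.02 (without NC-chow mouse 1) to -0.92 (without FET-chow mouse 4), and the IVF-chow value from -1.33 (without NC-chow mouse 1; -1.29 without IVF-chow mouse 4) to -0.04 (without IVF-chow mouse 2). Coding-scaled levels were 495, 1260 and 1180 in NC-chow, 728, 681 and 724 in IVF-chow and 454, 674 and 491 in FET-chow, so that the FET-chow mice were below the IVF-chow mice by a narrow margin and NC-chow mouse 1 was inside the FET-chow range. The scaled difference between FET-chow and IVF-chow was -0.41 (SE 0.41, adjusted p = 0.792, limma). Against NC-chow the scaled difference was -0.76 in FET-chow (SE 0.41, adjusted p = 0.388, limma) and -0.34 in IVF-chow (SE 0.41).

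Near-identical copies bear on every Gapdh value. The annotation holds 177 other genes, 168 of them pseudogenes, whose transcripts match the longest coding Gapdh transcript at 90% identity or more over at least 300 bases, and 103 of the 177 were detected in 1 or more mice. The highest, Gm13394 (mean 23.3 FPKM), Gm5559 (15.0) and Gm12033 (14.7), are processed pseudogenes that are 99.9% identical to it over about 1000 bases. Summed, the copies made up 41.4% to 60.0% of the FPKM of Gapdh and its copies together. How the reads were shared out among them is not given in the sources used here, and the 2 genes whose pattern was most like that of Gapdh (below) were copies. With the copies added, the FPKM was 86.6, 310 and 338 in NC-chow, 49.5, 162 and 284 in IVF-chow, and 74.6, 155 and 55.8 in FET-chow. The coding-scaled sum was 817 to 1229 in FET-chow and 1235 to 1479 in IVF-chow, still without overlap, but FET-chow mouse 4 and IVF-chow mouse 4 were almost equal.

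The primers with which the study measured Gapdh by PCR are shown because they lie inside this shared sequence. Both are found in 5 Gapdh transcripts, where they bound a product of 95 bases, and in the right order in transcripts of 42 other genes, most of which are processed pseudogenes.
Gapdh forward primer: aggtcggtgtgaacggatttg
Gapdh reverse primer: ggggtcgttgatggcaaca

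**Figure D4:**
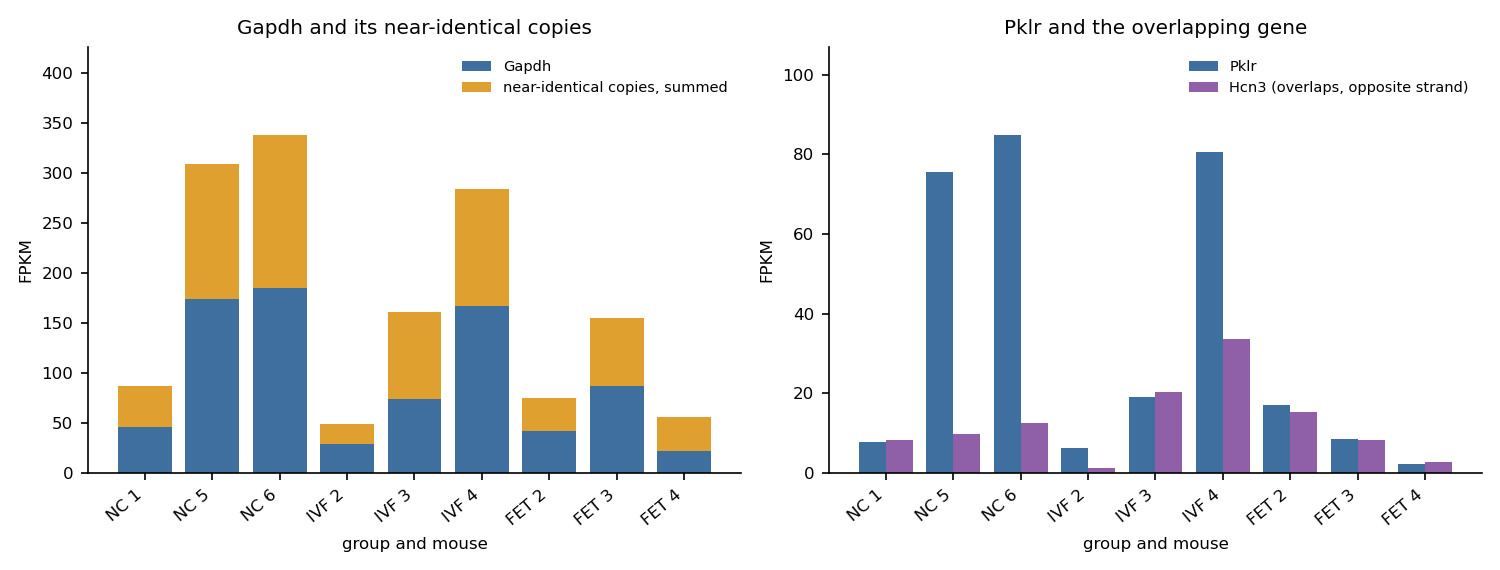
Left, FPKM of Gapdh (blue) with the summed FPKM of its near-identical copies stacked on top (orange), by mouse; the copies add 41.4% to 60.0% of each bar. Right, FPKM of Pklr (blue) beside that of Hcn3 (purple), the gene that overlaps it on the opposite strand; both axes are linear from 0, and Hcn3 is at a level like that of Pklr in NC-chow mouse 1, IVF-chow mouse 3 and the 3 FET-chow mice.

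Pgk1 (ENSMUSG00000062070, chrX:106187100-106203699, plus strand) encodes phosphoglycerate kinase, the first ATP-forming enzyme of the pathway. It was at 3.19, 8.21 and 9.02 FPKM in NC-chow, 2.54, 9.01 and 8.43 in IVF-chow, and 0, 4.90 and 1.85 in FET-chow. The FET-chow mice overlapped the lower end of both other groups. In FET-chow mouse 2, the shallowest library, Pgk1 is listed at 0. If that is a count of 0 it allows up to 0.814 FPKM (3 fragments, counting error only). The log2 fold change was -1.51 against NC-chow (SE 0.74, -2.99 to -0.02, unadjusted p = 0.0466, adjusted p = 0.409, limma) and -1.44 against IVF-chow (-2.92 to 0.05, adjusted p = 1, limma). The value against NC-chow was -0.83 without FET-chow mouse 2 (unadjusted p = 0.358, limma) and -2.11 without FET-chow mouse 3 (unadjusted p = 0.0178, limma), and with a pseudocount of 0.1 in place of 1 it was -2.66. IVF-chow differed from NC-chow by -0.07 (-1.55 to 1.41), which turned to 0.22 after coding scaling. Without FET-chow mouse 2 the unscaled -0.07 was unchanged, so the difference between FET-chow and IVF-chow shrank as that from NC-chow did. With the pseudocount of 0.1 the difference between FET-chow and IVF-chow was -2.57. After coding scaling FET-chow differed from NC-chow by -1.09 (SE 0.63, unadjusted p = 0.113, adjusted p = 0.417, limma). The scaled levels were 34.0, 59.4 and 57.6 in NC-chow, 65.0, 82.4 and 36.6 in IVF-chow, and 0, 37.9 and 40.9 in FET-chow. On this scale FET-chow mice 3 and 4 were above NC-chow mouse 1.

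Pgam1 (ENSMUSG00000011752, chr19:41911923-41918660, plus strand) encodes the phosphoglycerate mutase found in most tissues. Its FPKM was 3.30, 6.70 and 7.53 in NC-chow, 0.540, 5.04 and 4.05 in IVF-chow, and 0, 4.61 and 1.94 in FET-chow. The mouse at 0 was again FET-chow mouse 2, where the same limit is 0.837 FPKM. Against NC-chow, the log2 fold change was -1.37 in FET-chow (SE 0.70, -2.77 to 0.04, adjusted p = 0.430) and -0.86 in IVF-chow (-2.26 to 0.54, adjusted p = 1). The FET-chow value was -0.69 without mouse 2 of that group (unadjusted p = 0.406, limma), -1.94 without its mouse 3 (unadjusted p = 0.0223, limma) and -2.51 with the pseudocount of 0.1. After coding scaling the FET-chow value was -0.95 (SE 0.64, unadjusted p = 0.168, adjusted p = 0.491, limma). The unscaled IVF-chow value was -0.25 without IVF-chow mouse 2 and -1.23 without IVF-chow mouse 3. NC-chow mice 5 and 6 were above all the treated mice and NC-chow mouse 1 was not. Pgk1 and Pgam1 have 4 and 3 pseudogene copies by the same criterion, which summed to at most 3.36 and 1.19 FPKM. Of the FPKM of gene and copies together this was up to 27.2% for Pgk1 (IVF-chow mouse 3) and 36.2% for Pgam1 (IVF-chow mouse 2). The muscle form Pgam2 was at 3.50 FPKM in NC-chow mouse 1 and at most 0.311 in the other 8 mice, beside the muscle markers of that library.

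Pklr (ENSMUSG00000041237, chr3:89136142-89146784, plus strand) encodes the liver and red cell pyruvate kinase, the last enzyme of glycolysis. It had the largest spread of the 8, with 7.67, 75.6 and 84.9 FPKM in NC-chow, 6.14, 19.1 and 80.5 in IVF-chow, and 17.1, 8.45 and 2.29 in FET-chow. No FET-chow mouse reached 20 FPKM, but neither did NC-chow mouse 1 nor IVF-chow mice 2 and 3. The log2 fold change was -2.22 in FET-chow against NC-chow (SE 1.03, -4.29 to -0.15, adjusted p = 0.380), the lowest of the 8, with 1.57% of all genes below it. It was -0.76 in IVF-chow (-2.83 to 1.31, adjusted p = 1) and -1.46 between FET-chow and IVF-chow (-3.53 to 0.61, adjusted p = 1). The IVF-chow value was -1.68 without IVF-chow mouse 4 and 0.074 without IVF-chow mouse 2, while that of FET-chow stayed at -2.22. The difference between the treated groups therefore also moved with these mice. Coding scaling kept the order of the means: 81.8, 547 and 542 in NC-chow, 157, 175 and 349 in IVF-chow, and 187, 65.4 and 50.4 in FET-chow, with a scaled log2 fold change of -1.67 in FET-chow (SE 0.73, adjusted p = 0.305, limma). NC-chow mice 5 and 6 were above all the treated mice on this scale.

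The size of the Pklr difference depended on single mice, most on which NC-chow mice were used. With NC-chow mouse 1 as the only control, which leaves its spread to be taken from the other groups, the fold change of Pklr in FET-chow was -0.07, that of Gapdh was -0.10 and that of Slc2a2 was -0.99 (-0.76 in IVF-chow). Without that mouse Pklr was at -3.30 (adjusted p = 0.189) and Gapdh at -2.02 (adjusted p = 0.450), and without FET-chow mouse 4 Pklr was at -1.56 (unadjusted p = 0.185, limma). The libraries of NC-chow mice 5 and 6 also stood apart in composition. The 3 most abundant nuclear noncoding genes (CT010467.1, annotated as rRNA, AY036118 and Gm23935) took 3.49% and 5.03% of the summed FPKM in these mice, 26.5% in NC-chow mouse 1 and 18.1% to 61.9% in the treated mice, and mitochondrial genes took 55.3% and 51.9% in these mice and 27.6% to 41.5% in the other 7. Coding-scaled Pklr and Gapdh and the FPKM of Slc2a2, Pgam1 and Mlxipl (below) were likewise higher in NC-chow mice 5 and 6 than in any of the 7 others. The part that this composition, the muscle markers and the library numbering have in these values was not tested. Hcn3, an ion channel gene, overlaps Pklr on the opposite strand, and 711 exonic bases are common to both, which is 22.0% of the exonic bases of Pklr. The strandedness of the libraries is not given in the sources used here, so reads in that stretch cannot be assigned. Hcn3 had 8.24, 9.86 and 12.6 FPKM in NC-chow, 1.12, 20.3 and 33.6 in IVF-chow, and 15.2, 8.25 and 2.77 in FET-chow. This was 13.0% and 14.8% of the Pklr level in NC-chow mice 5 and 6 and 89.0% to 121% in the FET-chow mice. NC-chow mouse 1 was at 107%, and the IVF-chow mice were at 18.3%, 106% and 41.7%.

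**Figure D5:**
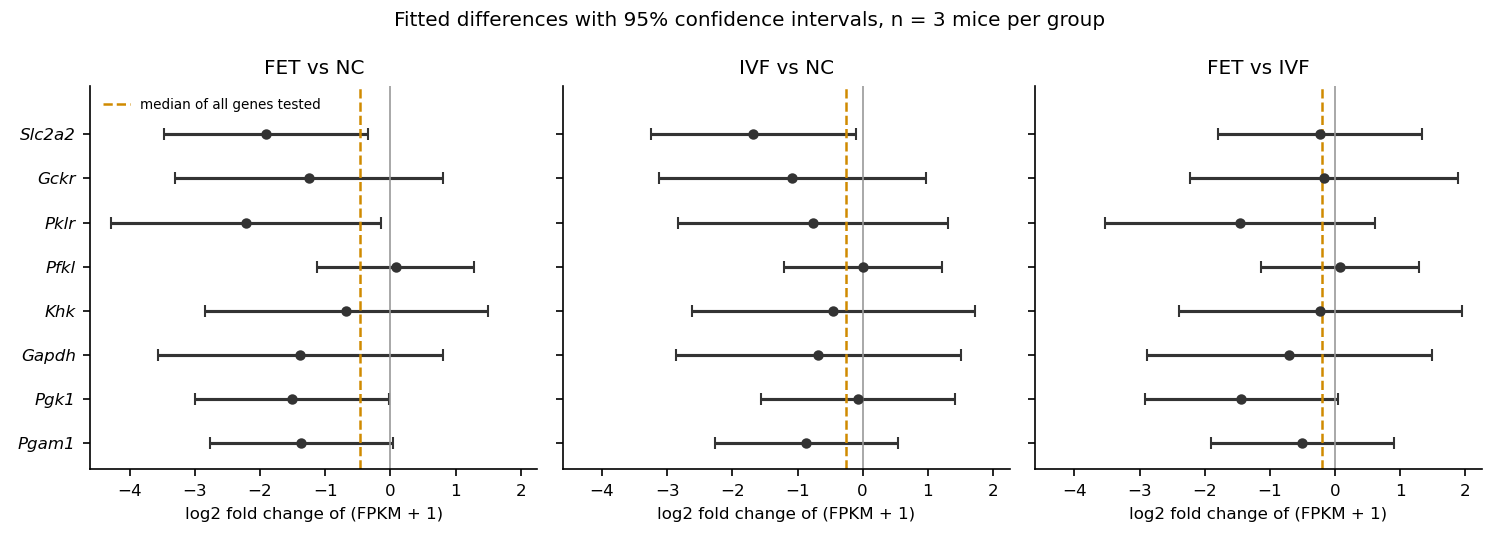
Log2 fold changes of FPKM + 1 (x axis) with 95% confidence intervals from limma for the 8 genes (y axis) in the 3 comparisons, n = 3 mice per group; the dashed line is the median over the 6755 genes tested. The intervals of Slc2a2, Pklr and Pgk1 in FET-chow and of Slc2a2 in IVF-chow against NC-chow lie below 0, without passing the adjusted threshold.

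The 8 genes differed in how much they varied, both before and after median-ratio scaling of the FPKM. Over the 9 mice the SD of log2(FPKM + 1) was between 0.58 (Pfkl) and 1.73 (Pklr). With median-ratio scaling it was 1.23 for Pklr and 1.06 for Slc2a2, against 0.38 for Khk, 0.45 for Gckr and 0.61 for Gapdh. Among 10 genes commonly used as references the scaled SD ran from 0.13 (Tbp, at a mean of 0.261 FPKM) to 1.164 (Hprt), and that of Actb was 0.24, so Gapdh varied more than Actb in these libraries. Within groups the scaled SDs of Gapdh and Actb were 0.53 and 0.21.

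The genes most like each member over the 9 mice were found by Pearson's r of the median-ratio scaled log2(FPKM + 1) among the 1293 genes whose mean FPKM reached 10. These values share the libraries and their depth and are descriptions. Gckr was closest to Agxt2 (r = 0.94) and Gstm3 (0.93), and Pklr to Asgr1 (0.92) and Cyp4f14 (0.91). For Slc2a2 the closest were Col18a1 (0.87) and Cyp2d37-ps (0.85), and for Khk they were Gpt2 (0.85) and Gm10053 (0.82). Gapdh was closest to its copies Gm12033 (0.97) and Gm5559 (0.97). For Pfkl, Pgk1 and Pgam1 none is named, since few fragments lie behind them. Within the 8, the scaled r was 0.79 for Pklr with Gapdh and 0.79 for Pgk1 with Pgam1, a pair with few fragments that is listed at 0 in the same mouse. Slc2a2 with Pfkl had -0.79, where Pfkl too rests on few fragments.

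The other genes of the pathway gave no call either. Of 10 further hexose transporters, Slc2a1, the transporter of most tissues, was the one with a mean over the 9 mice of at least 1 FPKM. It was at 0.878 ± 0.411 (SD, n = 3) in NC-chow, 1.53 ± 1.95 in IVF-chow and 1.49 ± 1.71 in FET-chow. Slc2a8 had means of 1.66 in NC-chow, 0.317 in IVF-chow and 0.501 in FET-chow, and Slc2a9 had 1.23, 0.574 and 0.445. Both were under the filter over all mice and were not tested. By its mean over all mice, Slc2a2 was thus the most abundant of the 11. The order was reversed in FET-chow mouse 3, where Slc2a1 was at 3.45 FPKM and Slc2a2 at 1.37. In all, 7 of 21 other glycolytic enzyme genes were tested and 0 were called in the 3 comparisons, with 6 negative in FET-chow against NC-chow and a median of -0.19, or 1 negative and 0.39 after coding scaling. Their most abundant members Aldoa, Tpi1 and Gpi1, which serve the middle and upper steps, had log2 fold changes of -0.37, -0.19 and -0.12 (SE 0.89, 0.88 and 0.85), above the all-gene median of -0.46. The lowest of the list, named after its values were seen, was Pfkfb1, which encodes the liver enzyme that makes and breaks down the activator of phosphofructokinase, at -1.45 (SE 0.75, unadjusted p = 0.0605, adjusted p = 0.445, limma). Its FPKM was 10.3, 6.77 and 10.5 in NC-chow, 1.27, 3.43 and 12.3 in IVF-chow, and 6.22, 2.22 and 1.12 in FET-chow.

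Of 4 further fructose and polyol genes, 3 were tested and 0 called, and the 3 were negative in FET-chow against NC-chow with a median of -0.75, beside -0.46 over all genes, or -0.15 and -0.03 after coding scaling. Sord, which makes fructose from sorbitol, was at 113 ± 28.6 FPKM in NC-chow, 70.5 ± 51.2 in IVF-chow and 57.4 ± 20.2 in FET-chow (log2 fold change -0.998, SE 1.06, adjusted p = 0.755 in FET-chow). Tkfc, which phosphorylates the glyceraldehyde formed from fructose, and Glyctk, which phosphorylates glycerate, had -0.75 (SE 1.05) and -0.74 (SE 0.86) in FET-chow.

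Among 8 carbohydrate response genes, 6 were tested and 0 called, with 5 negative in FET-chow and 6 in IVF-chow against NC-chow, or 2 and 6 after coding scaling. Between FET-chow and IVF-chow, 1 of the 6 was negative, or 0 after coding scaling. The median was 0.24, beside -0.20 over all genes, or 0.47 and 0.04 after scaling. Txnip, which encodes an inhibitor of glucose uptake and is named here after its values were seen, had the largest of these differences, at 1.35 (SE 0.60, unadjusted p = 0.0297, adjusted p = 1, limma). Its FPKM was 1.09, 3.81 and 3.71 in NC-chow, 0.524, 0.568 and 0.962 in IVF-chow, and 2.61, 3.99 and 3.27 in FET-chow. The group means, in this order, were 2.87, 0.684 and 3.29, so Txnip passed the filter of 1 FPKM through the groups where it was higher. The p-value of Txnip is therefore a description only. Mlxipl encodes ChREBP, the factor that binds carbohydrate response elements such as that of Pklr. Its FPKM was 44.9, 106 and 120 in NC-chow, 13.2, 26.4 and 52.5 in IVF-chow, and 68.2, 40.3 and 15.1 in FET-chow. NC-chow mice 5 and 6 were again above every treated mouse and NC-chow mouse 1 was among them. The log2 fold change was -1.23 in FET-chow (SE 1.04, adjusted p = 0.678) and -1.61 in IVF-chow (SE 1.04, adjusted p = 1). Gpd1, which makes glycerol phosphate from a glycolytic intermediate, and Nr1h3, which encodes the sterol sensor LXRα, had -0.44 (SE 0.93) and -0.47 (SE 0.83) in FET-chow.

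Of 17 genes for the fates of pyruvate, 14 were tested and 0 called, and all 14 were negative in FET-chow against NC-chow with a median of -0.74, where 74.4% of all genes were negative and their median was -0.46. After coding scaling 12 of the 14 were negative with a median of -0.23, beside 51.7% of all genes and -0.03. The most abundant were Pcx, which carboxylates pyruvate for gluconeogenesis (-0.79, SE 0.91), Ldha, which makes lactate (-0.42, SE 0.86), and Pdk2, which inhibits pyruvate dehydrogenase (-1.25, SE 0.83). Dlat, which encodes a subunit of pyruvate dehydrogenase and is named after its values were seen, was the 1 gene of the list with an unadjusted p under 0.05 (-1.25, SE 0.58, unadjusted p = 0.0361, adjusted p = 0.380, limma). It had 1.77, 1.99 and 2.56 FPKM in NC-chow, 0.515, 0.905 and 1.96 in IVF-chow, and 0, 1.18 and 0 in FET-chow, so few fragments lie behind it. The group means were 2.11, 1.13 and 0.393, so Dlat passed the filter of 1 FPKM through the groups where it was higher. Its p-value is therefore a description only. In IVF-chow 11 of the 14 were negative, with a median of -0.41, or 9 and -0.22 after scaling.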

How the data were processed

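Liver RNA of 9 mice, 3 a group, was analysed. Groups came from the sample labels. The authors deposited FPKM for 55335 genes, per the labels after FastQC 0.11.5, STAR 2.5.3a, StringTie 1.3.1c and DESeq2 1.16.1 (the submitters' processing notes, with no roles given); build, annotation and strandedness are not given in the sources used here. Symbols and positions came from GENCODE vM21 (GRCm38), which matched 55154 identifiers; 181 carry none. FPKM are not counts, so the number of fragments was inferred from the spacing of low values (multiples of up to 8 fragments, tolerance 2%); 43.2% to 51.9% of low values lay on a step against 9.08% to 16.2% by chance.

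Tests used limma 3.58.1 (R 4.3.3), applied to log2(FPKM + 1) of the 6755 genes whose mean FPKM was 1 or more, the 3 groups in 1 model with a variance trend, two-sided, Benjamini-Hochberg. The procedure was tested on simulated data for FET-chow against NC-chow. With no change added, 0 genes were called. At an added log2 change of 3, 60.4% of changed genes were recovered, with 4.8 of 125.6 calls false. At an added change of 6, 99.4% were recovered, with 11.6 of 210.4 calls false. Changes of 3 could therefore be missed. The lowest value of the 8 genes in this comparison, -2.22 for Pklr, was a smaller change than that, and recovery at such sizes was not simulated. Coding scaling divided by the summed FPKM of nuclear protein-coding genes. Copies were found with BLAST+ 2.17.0. The genes, lists and alternatives were chosen with earlier results of these data known. Genes named beside the 8 were the 3 most abundant tested genes of each list and the 2 most alike to a member. Slc2a8 and Slc2a9 were not tested and were named outside this rule, as the most abundant of their list after Slc2a1. Txnip, Dlat, Pfkfb1 and Pgam2, and genes sharing sequence with a member, were added after their values were seen. Aldoa, with 2 identifiers, was taken from the one above 0. The alternatives are given with their effects at the end.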

Additional observations from a re-analysis of the deposited data

How the results depend on the processing

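The 0 of 8 calls held under every alternative that was run for a comparison: a pseudocount of 0.1, no filter, a mean FPKM of at least 10 (4 of the 8 tested), median-ratio scaling, rescaling to nuclear protein-coding genes, a fit of only the compared groups, leaving out each mouse, NC-chow mouse 1 as sole control (for the comparisons with NC-chow), the replicate block (for FET-chow against IVF-chow) and, chosen after seeing the data, rescaling with a pseudocount of 0.1. The median of the members in FET-chow against NC-chow was -0.44 with NC-chow mouse 1 alone and -1.79 to -1.16 over the mice left out. In IVF-chow against NC-chow it was 0.058 with that mouse alone and -1.27 to 0.017 over the mice left out, reversed without IVF-chow mouse 2. Its range in FET-chow against IVF-chow was -1.18 to -0.07.

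Some fold changes of single genes changed sign. In IVF-chow against NC-chow, Pfkl was -0.21 with the pseudocount of 0.1. Pgk1 was 0.29 with median-ratio scaling and 0.22 and 0.25 with the 2 coding rescalings. With NC-chow mouse 1 alone, Pklr was 1.39, Khk 0.066, Gapdh 0.60 and Pgk1 0.73. In FET-chow against IVF-chow, coding rescaling gave 0.0015 for Slc2a2, 0.12 for Gckr and 0.078 for Khk, and the added rescaling 0.12 for Gckr and 0.080 for Khk. With each mouse left out, the range in IVF-chow against NC-chow was -0.45 to 0.42 for Pfkl (negative without NC-chow mouse 1 or 5 or IVF-chow mouse 4), -0.47 to 0.42 for Pgk1 (positive without NC-chow mouse 5 or 6 or IVF-chow mouse 2), and -1.84 to 0.074 for Pklr and -1.24 to 0.56 for Khk (both positive without IVF-chow mouse 2). In FET-chow against IVF-chow it was -0.72 to 0.23 for Slc2a2 (positive without FET-chow mouse 3), -0.87 to 0.46 for Gckr and -1.24 to 0.56 for Khk (both positive without IVF-chow mouse 4 or FET-chow mouse 4), -0.34 to 0.53 for Pfkl (negative without IVF-chow mouse 2 or FET-chow mouse 3) and -1.12 to 0.17 for Pgam1 (positive without FET-chow mouse 2). For Pfkl in FET-chow against NC-chow it was -0.33 to 0.41, negative without FET-chow mouse 3. The causes were not tested.

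Calls over all genes, the background, moved from 16 in FET-chow against NC-chow to 0 with no filter or only the compared groups, 5 at a mean of at least 10, 6 with NC-chow mouse 1 alone, and 1 to 83 over the mice left out (1 without FET-chow mouse 3, 83 without NC-chow mouse 1, 57 without FET-chow mouse 2). In IVF-chow against NC-chow 4 became 0 under the pseudocount of 0.1, no filter, both scalings, the added rescaling and the 2-group fit, 2 at a mean of at least 10 or with NC-chow mouse 1 alone, and 0 to 24 over the mice left out. In FET-chow against IVF-chow 6 became 0 with no filter or the 2-group fit and 0 to 10 over the mice left out. Mice 2, 3 and 4 carry the same numbers in both treated groups, but same-numbered residuals correlated at -0.13, 0.02 and -0.26, so the numbers give no pairing, and no mouse correlated best with its own number. With the replicate block 2 genes were called, none of the 8, whose median stayed -0.37. Depth limits Pfkl, Pgk1 and Pgam1 most.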
